A study of Mus musculus with 4 samples.

Results

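The small leucine-rich proteoglycans and dermatopontin were followed as 9 genes of the extracellular matrix across 4 single-cell libraries: Dcn (decorin), Bgn (biglycan), Aspn (asporin), Lum (lumican), Fmod (fibromodulin), Prelp, Ogn (osteoglycin), Podn (podocan) and Dpt (dermatopontin). They were taken as a list of 9 among the 32285 genes counted. The cells were C3H 10T1/2, a line of mouse mesenchymal progenitor cells (MPCs), transduced with a lentivirus carrying tagged wild-type histone H3 (H3WT) or histone H3 with arginine changed to cysteine at residue 26 (H3R26C). The transgene was driven by the EF1 promoter in puromycin-selected populations, all groups kept their endogenous wild-type H3, and the transgene was not measured separately here. Each genotype was treated with 5-azacytidine (5-Aza), which inhibits DNA methylation and lets these cells form muscle and fat, or with its vehicle DMSO, and each of the 4 combinations has 1 library. For this reason the library is the only unit of comparison, the spread between cultures is unknown and no test between conditions was possible. The study's methods describe a brief 5-Aza exposure, after which the medium was renewed for weeks before the cells were collected. Levels with 5-Aza are thus those of cells weeks after the drug. The sources used here do not state when the DMSO cells were collected relative to the 5-Aza cells, which bears on every ratio of 5-Aza to DMSO. Every interval given is a 95% interval for counting error alone.

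Small leucine-rich proteoglycans are secreted proteins built on leucine-rich repeats, most of which carry glycosaminoglycan chains. They coat collagen fibrils and set how the fibrils grow in width, and several also bind growth factors such as TGF-β. Decorin, biglycan and asporin form one class, of which decorin and biglycan carry chondroitin or dermatan sulfate. Lumican, fibromodulin and PRELP form another, of which lumican and fibromodulin carry keratan sulfate. Osteoglycin and podocan belong to further classes, and dermatopontin is a matrix protein without leucine-rich repeats that binds decorin. Decorin and lumican are commonly used to recognise fibroblasts.

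Cells were kept when they had at least 5000 UMIs (unique molecular identifiers, 1 per captured transcript), at least 1500 genes and at most 20% mitochondrial UMIs. This left 3710 H3WT DMSO, 5993 H3WT 5-Aza, 4727 H3R26C DMSO and 7619 H3R26C 5-Aza cells, with 84060490 to 110712425 UMIs per library and median UMIs per cell of 13123 to 22420. Between 24 and 58 cell barcodes were shared by any pair of libraries, and no doublets were removed. The mesenchymal markers were present in every library, with 7, 7, 7 and 8 of 8 above the floor of 3 UMIs and a summed level of 5804 to 7095 CPM (UMIs per 1000000 UMIs of the library); the exception was Nt5e, which had 0 UMIs in both DMSO libraries. Skeletal muscle markers summed to 23.0 and 16.2 CPM with DMSO and to 2143 and 2618 CPM with 5-Aza (H3WT and H3R26C), adipocyte markers ran from 70.7 to 262 CPM, and mitosis markers were at 204, 363, 433 and 751 CPM in H3WT DMSO, H3WT 5-Aza, H3R26C DMSO and H3R26C 5-Aza. Series of 4 values keep this order throughout. Tendon, osteoblast, endothelial, blood and epithelial markers stayed at or under 31.0 CPM in sum, and chondrocyte markers at or under 43.1 CPM.

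The members sit partly in clusters on the mouse genome (GRCm38). Dcn (chr10:97479609-97518143) and Lum (chr10:97565128-97572703) share a stretch of 203 kb with Kera and Epyc. Aspn (chr13:49544443-49567565) and Ogn (chr13:49608046-49624501) share 120 kb with Ecm2 and Omd. Prelp (chr1:133910304-133921414) and Fmod (chr1:134037254-134048277) share 151 kb with Optc, which lies at the outer end beside Prelp. Dpt (chr1:164796644-164824266), Bgn (chrX:73483602-73495933) and Podn (chr4:108014791-108096445) stand apart from these clusters. Exons of Aspn overlap Cenpp on the opposite strand, which was at 5.63 to 13.1 CPM, and exons of Prelp overlap Gm15851, at 0.512 to 1.62 CPM, so part of the reads of these pairs may have been assigned to either gene.

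Because 5-Aza acts on cytosine methylation, which in mammals is placed mainly at CG dinucleotides, promoter windows of 4 members are shown with each CG in capitals. The windows are from RefSeq (GRCm38.p6) and run from 250 bases before to 50 bases after the start of the gene, 5′ to 3′ on the strand of the gene. Of the 9 members 7 had an entry, and Dcn and Lum had none. Dpt and Fmod were at least 2-fold higher with 5-Aza in both genotypes, Prelp in H3R26C alone, and Bgn is given as a member that hardly differed. The windows are chr1:164796413-164796712 (+) for Dpt, chr1:134037004-134037303 (+) for Fmod, chr1:133921352-133921651 (-) for Prelp and chrX:73483351-73483650 (+) for Bgn.
Dpt: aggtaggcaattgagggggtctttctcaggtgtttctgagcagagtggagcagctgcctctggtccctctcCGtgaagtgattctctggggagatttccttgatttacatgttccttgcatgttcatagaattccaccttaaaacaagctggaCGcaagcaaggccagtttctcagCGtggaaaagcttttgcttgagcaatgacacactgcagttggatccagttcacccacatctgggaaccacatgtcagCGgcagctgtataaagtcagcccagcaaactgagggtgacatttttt
Fmod: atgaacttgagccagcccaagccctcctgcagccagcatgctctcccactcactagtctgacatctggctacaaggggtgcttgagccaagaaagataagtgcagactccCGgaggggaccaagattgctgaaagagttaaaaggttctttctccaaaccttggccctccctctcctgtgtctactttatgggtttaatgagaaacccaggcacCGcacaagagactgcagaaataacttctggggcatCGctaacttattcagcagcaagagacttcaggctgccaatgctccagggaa
Prelp: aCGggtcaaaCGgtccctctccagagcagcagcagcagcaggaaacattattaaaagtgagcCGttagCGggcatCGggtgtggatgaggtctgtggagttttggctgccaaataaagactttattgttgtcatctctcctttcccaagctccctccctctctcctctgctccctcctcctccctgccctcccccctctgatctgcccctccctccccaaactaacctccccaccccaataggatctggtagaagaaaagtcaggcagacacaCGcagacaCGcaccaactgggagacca
Bgn: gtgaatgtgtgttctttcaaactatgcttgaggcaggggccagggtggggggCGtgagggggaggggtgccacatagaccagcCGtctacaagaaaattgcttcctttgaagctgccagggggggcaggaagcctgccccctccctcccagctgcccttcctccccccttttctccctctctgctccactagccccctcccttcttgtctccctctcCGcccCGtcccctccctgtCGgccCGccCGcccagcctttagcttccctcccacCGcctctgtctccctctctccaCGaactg
These windows held 4, 3, 7 and 9 CG, those of Ogn and Aspn 4 and 3, and the start sites of Podn 41 and 7. CG reads the same on both strands. Among 32851 promoter windows of this length, 94.6% held at least 1 CG, the median was 7 and the quartiles were 3 and 20. Methylation was not measured in the data used here, and the counts of CG describe the sequence alone.

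The members together took 0.392%, 0.547%, 0.438% and 0.552% of all UMIs, that is 3917 CPM in H3WT DMSO, 5469 in H3WT 5-Aza, 4383 in H3R26C DMSO and 5519 in H3R26C 5-Aza. Both 5-Aza libraries were thus above both DMSO libraries. Bgn supplied 54.6% of the family's UMIs in H3WT DMSO and 37.0%, 44.4% and 40.5% in the other libraries. How well each transcript is captured was not measured, so levels are compared between libraries within a gene. The share of Bgn is a share of UMIs alone.

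Decorin, which binds collagen and TGF-β, was at 874 CPM (868 to 880) in H3WT DMSO, 1627 CPM (1619 to 1636) in H3WT 5-Aza, 1420 CPM (1412 to 1428) in H3R26C DMSO and 1544 CPM (1536 to 1551) in H3R26C 5-Aza. H3WT DMSO alone was low, and the other libraries lay close together. The ratio of 5-Aza to DMSO was 1.86 (1.85 to 1.88) in H3WT and 1.09 (1.08 to 1.10) in H3R26C, and the ratio of H3R26C to H3WT was 1.62 with DMSO and 0.949 with 5-Aza. Biglycan, which is also a ligand of Toll-like receptors, was at 2139, 2025, 1944 and 2235 CPM, and its highest level was a smaller multiple of its lowest than for any other member. Asporin, which binds collagen and lacks the usual glycosaminoglycan chains, was at 55.3, 99.1, 91.7 and 157 CPM. It was lowest in H3WT DMSO and highest in H3R26C 5-Aza, with a ratio of 5-Aza to DMSO of 1.79 (1.73 to 1.86) in H3WT and 1.71 (1.67 to 1.76) in H3R26C.

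Lumican was at 297 CPM (293 to 301) in H3WT DMSO, 893 CPM (887 to 899) in H3WT 5-Aza, 354 CPM (350 to 358) in H3R26C DMSO and 994 CPM (988 to 999.8) in H3R26C 5-Aza. The libraries separated by treatment, with 5-Aza 3.01 times DMSO in H3WT (2.97 to 3.05) and 2.81 times in H3R26C (2.77 to 2.84), while the genotypes differed by 1.19 and 1.11 times. Fibromodulin, which guides the assembly of collagen fibrils in tendon, rested on few UMIs: 162, 500, 33 and 520, or 1.86, 5.93, 0.393 and 4.70 CPM. It was higher with 5-Aza by a ratio of 3.18 (2.66 to 3.82) in H3WT and 11.96 (8.41 to 17.6) in H3R26C, the wider interval reflecting the 33 UMIs of H3R26C DMSO. PRELP, which anchors collagen to heparan sulfate chains, was at 46.0, 68.0, 37.2 and 80.8 CPM, with both 5-Aza libraries above both DMSO libraries and ratios of 1.48 (1.42 to 1.54) and 2.18 (2.09 to 2.27).

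Osteoglycin, named for its presence in bone matrix, had ratios on opposite sides of 1 over all cells. It was at 446, 561, 511 and 438 CPM, so 5-Aza was above DMSO in H3WT (1.26, 1.24 to 1.27) and below it in H3R26C (0.858, 0.847 to 0.870). Podocan was at 6.46, 11.3, 8.23 and 12.5 CPM, from 561 to 1385 UMIs, with ratios of 5-Aza to DMSO of 1.74 (1.57 to 1.94) and 1.52 (1.39 to 1.67). Dermatopontin was at 51.5 CPM (49.97 to 53.0) in H3WT DMSO, 179 CPM (176 to 182) in H3WT 5-Aza, 16.5 CPM (15.7 to 17.4) in H3R26C DMSO and 52.9 CPM (51.5 to 54.2) in H3R26C 5-Aza. It differed along both factors at once: 5-Aza was 3.48 times DMSO in H3WT (3.37 to 3.60) and 3.20 times in H3R26C (3.02 to 3.40), and H3R26C was 0.321 times H3WT with DMSO (0.302 to 0.341) and 0.295 times with 5-Aza (0.286 to 0.304). As a result the H3R26C 5-Aza library stood near H3WT DMSO for this gene.

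**Figure D1:**
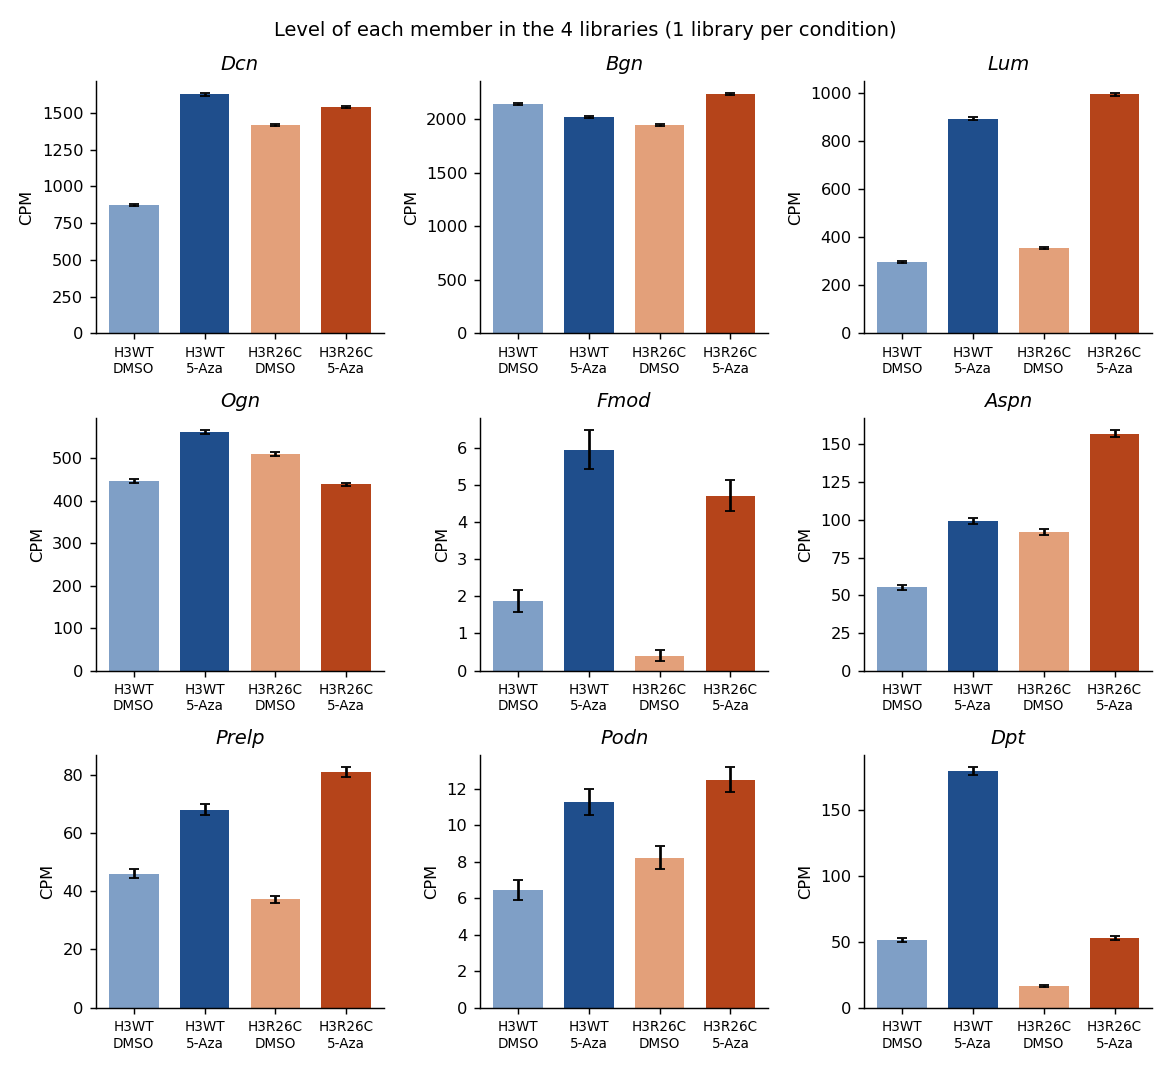
Level of each of the 9 members in the 4 libraries, in CPM of summed UMIs, with bars for the exact 95% Poisson interval of counting error. Lum and Dpt are higher with 5-Aza in both genotypes, Dpt is lower in H3R26C under both treatments, and Bgn varies least in proportion, from 1944 to 2235 CPM.

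The plot of levels shows each library as a bar, so the treatment and the genotype can be read separately for each gene. To count differences on one rule across all genes, a gene was taken in (called tested here, without a statistical test) where its mean over both libraries was at least 1 CPM, and a difference of at least 2-fold in CPM + 1 was counted. All 9 members passed the minimum in every comparison. Fmod was at 0.393 CPM in H3R26C DMSO, so in comparisons with that library it passed through the other library alone. With 5-Aza in H3WT 3 members were at least 2-fold higher (Lum, Fmod and Dpt) against 4.26% of all 12306 genes tested, and 0 were lower against 0.276%. With 5-Aza in H3R26C 4 were higher (Lum, Fmod, Prelp and Dpt) against 8.04% of 12551 genes, and 0 were lower against 3.09%. Between genotypes with DMSO 0 were higher in H3R26C against 1.82% and 2 were lower (Fmod and Dpt) against 0.589%. The log2 ratio of Fmod there was -1.04, only just past 2-fold. Between genotypes with 5-Aza 0 were higher against 4.79% and 1 was lower (Dpt) against 2.64%. The median log2 ratio of the 9 members was 0.83 in H3WT and 0.77 in H3R26C for 5-Aza, where that of all genes was 0.04 and -0.03, and 0.19 and 0.14 for genotype, where that of all genes was 0.03 and -0.03. The comparisons share libraries and are not independent of one another.

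**Figure D2:**
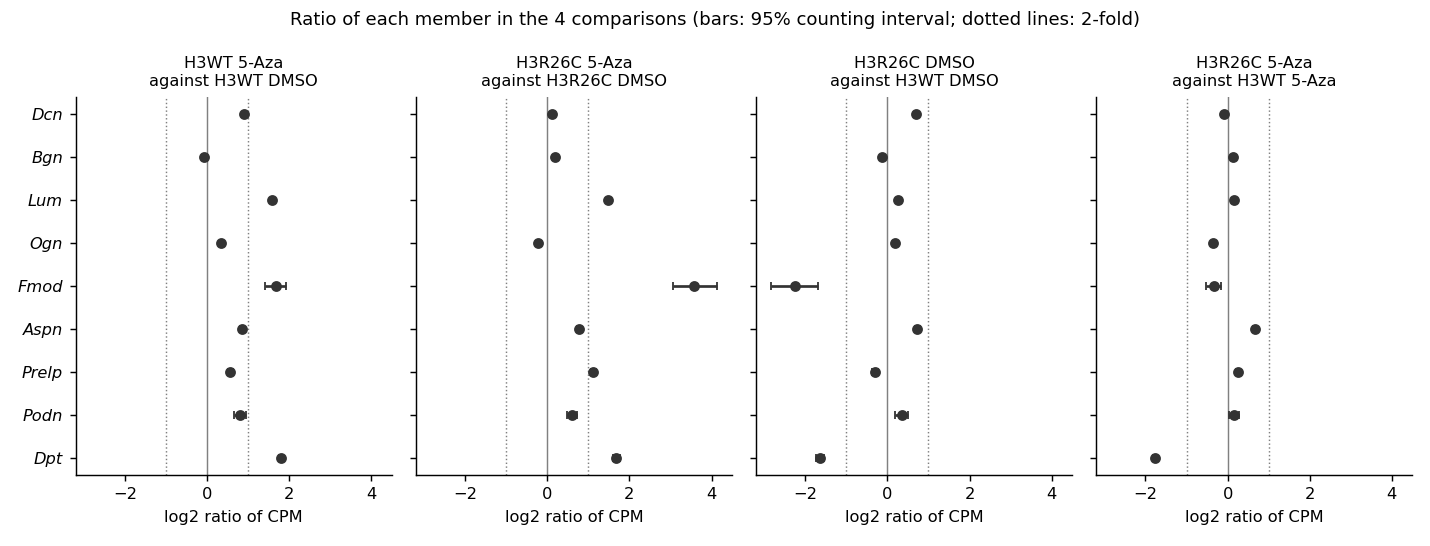
Ratio of CPM (log2, no pseudocount) of each member in the comparisons of treatment and of genotype, with bars for the exact 95% counting interval and lines at 2-fold. With 5-Aza 8 of 9 members lie above 0 in H3WT and 8 of 9 in H3R26C, and Dpt is the member past 2-fold in all 4 comparisons.

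In the plot of ratios, Dcn and Ogn lie lower for 5-Aza in H3R26C than in H3WT, and Bgn, Fmod and Prelp lie higher. With 1 CPM added, unlike in the plot, the log2 ratio of 5-Aza in H3R26C minus that in H3WT was -0.78 for Dcn, -0.55 for Ogn, 0.28 for Bgn, 0.76 for Fmod and 0.55 for Prelp. For Fmod, at low levels, the added 1 CPM makes this difference smaller than the plain ratios of 11.96 and 3.18 give. Among 12097 genes these values stood at percentiles 3.65, 7.59, 87.9, 97.0 and 94.9. For Lum, Aspn, Podn and Dpt the difference was between -0.17 and -0.06.

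To compare how many cells held each transcript, every cell was thinned to 5000 UMIs. Dcn was then found in 76.6%, 86.9%, 83.9% and 85.9% of cells (unthinned, 93.3% to 94.7%). Lum was found in 48.7% of H3WT DMSO and 48.5% of H3R26C DMSO cells and in 80.5% and 78.8% of the 5-Aza cells, so its higher level went with a higher share of cells. Dpt was found in 16.2%, 36.7%, 5.58% and 16.3% of cells (unthinned, 34.9%, 51.4%, 11.3% and 28.1%). Bgn was found in 97.4% to 99.5% of cells, Ogn in 66.0% to 75.1%, Aspn in 19.4% to 35.4%, Prelp in 14.6% to 28.6%, Podn in 3.15% to 5.99% and Fmod in 0.169% to 1.69%. The 10% of cells with the most Bgn held 20.6% to 24.5% of its UMIs. The corresponding share was 37.7% to 43.3% for Dcn, 35.0% to 53.4% for Lum and 60.7% to 66.9% for Aspn. Counting error alone raises this share for genes with few UMIs per cell, so it does not rank the genes by differences between cells. The median per thinned cell was 9 to 11 UMIs for Bgn and 0 for Aspn.

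Cells with at least 8 of 12 muscle markers were set beside the other cells as a rough reference for free RNA in the droplets. Whether these cells lack the members' transcripts was not tested, and doublets were not removed. Their levels therefore cannot separate free RNA from expression or doublets. There were 153 such cells in H3WT 5-Aza and 210 in H3R26C 5-Aza, and 0 in both DMSO libraries, which by the limit of 3 counts allows a share of up to 0.0809% and 0.0635%. Their median depth was 13721 and 18362.5 UMIs against 13140.5 and 13064 in the other cells. Thinned to the same depth, Dcn was found in 38.6% and 44.8% of them against 88.2% and 87.0% of the other cells of the library, and Lum in 35.9% and 36.2% against 81.7% and 80.1%. Dpt was found in 15.7% and 4.76% against 37.3% and 16.6%. The levels in CPM were lower as well, at 462 and 374 for Dcn against 1662 and 1590, and at 242 and 226 for Lum against 912 and 1024. Ogn stood apart, with 396 and 332 CPM against 566 and 443 and a share of 59.5% and 66.7% against 75.5% and 65.9%. In H3R26C 5-Aza its share was thus no lower in the muscle-marker cells. The DMSO libraries hold no such cells and have no reference of this kind. In barcodes of fewer than 1000 UMIs, which may hold free RNA or poor cells, Dpt was at 38.5, 139, 11.03 and 61.4 CPM, close to the order of the kept cells. These levels rest on 42, 611, 9 and 98 UMIs, and what the barcodes hold was not tested.

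The cells were next divided by elastin and osteopontin, a matrix protein of elastic fibres and a secreted phosphoprotein of remodelling matrix. Cells with at least 5 UMIs of Eln made up 45.5%, 29.0%, 10.7% and 4.34% of the libraries, and cells with at least 10 UMIs of Spp1 14.2%, 27.6%, 16.7% and 73.4%. Both thresholds count raw UMIs, and median UMIs per kept cell were 22420, 13149, 16598 and 13123, so these shares also depend on depth. In H3WT the Eln share was lower with 5-Aza while Eln itself was at 441 CPM with DMSO and 554 with 5-Aza. On cells thinned to 5000 UMIs, a threshold of 2 Eln UMIs took in 1322 of 3710, 1903 of 5993, 512 of 4727 and 444 of 7619 cells. In H3WT this share was lower with 5-Aza as well. A threshold of 4 Spp1 UMIs took in 353, 1625, 674 and 5661 of the same cells. Within each library both subsets were deeper than the remaining cells, with medians of 13659 to 23975 UMIs against 12988 to 20973 for Eln and 13658 to 28408 against 11830.5 to 21779 for Spp1. Few cells were in both, from 0.338% of H3R26C DMSO to 6.09% of H3WT 5-Aza. Since cells inside and outside come from the same library, these contrasts compare cells of 1 culture and the members do not enter the definition of either subset.

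The Eln subset differed little in these genes. At least 2-fold higher in Eln cells were 0 members in H3WT DMSO, 0 in H3WT 5-Aza, 1 in H3R26C DMSO and 0 in H3R26C 5-Aza, against 0.15%, 0.185%, 0.831% and 0.852% of all genes, and 0 were lower in any library, against 0.476%, 1.17%, 1.66% and 2.07%. The 1 member was Dpt in H3R26C DMSO, at 33.4 CPM (29.9 to 37.2) inside and 14.3 CPM outside, a ratio of 2.34 (2.06 to 2.65). In the other libraries Dpt was at 54.8, 224 and 79.8 CPM inside and 48.4, 160 and 51.6 CPM outside, so inside was above outside in all 4. In H3WT DMSO this turned from 0.18 to -0.10 (log2) in cells of 10000 to 20000 UMIs and to -0.05 with the subset set on thinned cells. Bgn, Ogn and Podn were likewise above outside in all 4 libraries, with ratios of 1.18 to 1.40, 1.10 to 1.47 and 1.33 to 1.75. Fmod reached a plain ratio of 2.05 (1.47 to 2.89) in H3WT DMSO and 2.13 (1.55 to 2.87) in H3R26C 5-Aza at levels of 1.24 to 9.51 CPM, which does not count as 2-fold once 1 CPM is added. In H3R26C 5-Aza its log2 ratio with 1 CPM added turned from 0.94 to -0.18 with the subset set on thinned cells. Dcn was lower inside in H3WT (0.777 with DMSO, 0.873 with 5-Aza) and higher inside in H3R26C (1.25 and 1.32).

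The Spp1 subset differed more. At least 2-fold higher in Spp1 cells were 2 members in H3WT DMSO (Fmod and Prelp) against 3.6% of all genes, 1 in H3WT 5-Aza (Fmod) against 1.08%, 1 in H3R26C DMSO (Prelp) against 5.33% and 0 in H3R26C 5-Aza against 2.62%. At least 2-fold lower were 0 in H3WT DMSO against 0.95%, 0 in H3WT 5-Aza against 0.859%, 6 in H3R26C DMSO (Dcn, Lum, Ogn, Aspn, Podn and Dpt) against 4.19% and 1 in H3R26C 5-Aza (Dcn) against 2.66%.

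Dcn was lower in Spp1 cells of every library. It was at 506 CPM inside and 958 outside in H3WT DMSO (ratio 0.528, 0.516 to 0.540), 1212 and 1825 in H3WT 5-Aza (0.664, 0.656 to 0.672), 420 and 1692 in H3R26C DMSO (0.248, 0.243 to 0.254) and 1191 and 2738 in H3R26C 5-Aza (0.435, 0.431 to 0.439). Ogn and Dpt were also lower inside in all 4 libraries, with ratios of 0.485 to 0.709 and 0.219 to 0.867. Lum was lower inside in H3R26C, at 107 against 421 CPM with DMSO and 835 against 1534 with 5-Aza. In H3WT it was at 250 against 308 CPM with DMSO and at 897 against 891 with 5-Aza. Prelp went the other way in the DMSO libraries, at 100.1 CPM inside and 33.7 outside in H3WT and 72.7 and 27.5 in H3R26C, and it was at 91.0 against 57.1 and 79.7 against 84.7 with 5-Aza. Fmod was at 6.08 inside and 0.905 outside in H3WT DMSO (6.72, 4.86 to 9.36) and at 14.1 and 2.03 in H3WT 5-Aza (6.94, 5.62 to 8.61), whereas in H3R26C it was at 0.723 and 0.303 with DMSO and 4.34 and 5.91 with 5-Aza. In H3WT DMSO Fmod passed the minimum through the Spp1 cells alone. Of their 98 Fmod UMIs, 66 lay in the 139 cells that were also in the Eln subset, at 15.9 CPM. The 388 Spp1 cells outside the Eln subset held 32 Fmod UMIs, or 2.675 CPM. Bgn was within 0.961 to 1.26 times throughout.

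**Figure D3:**
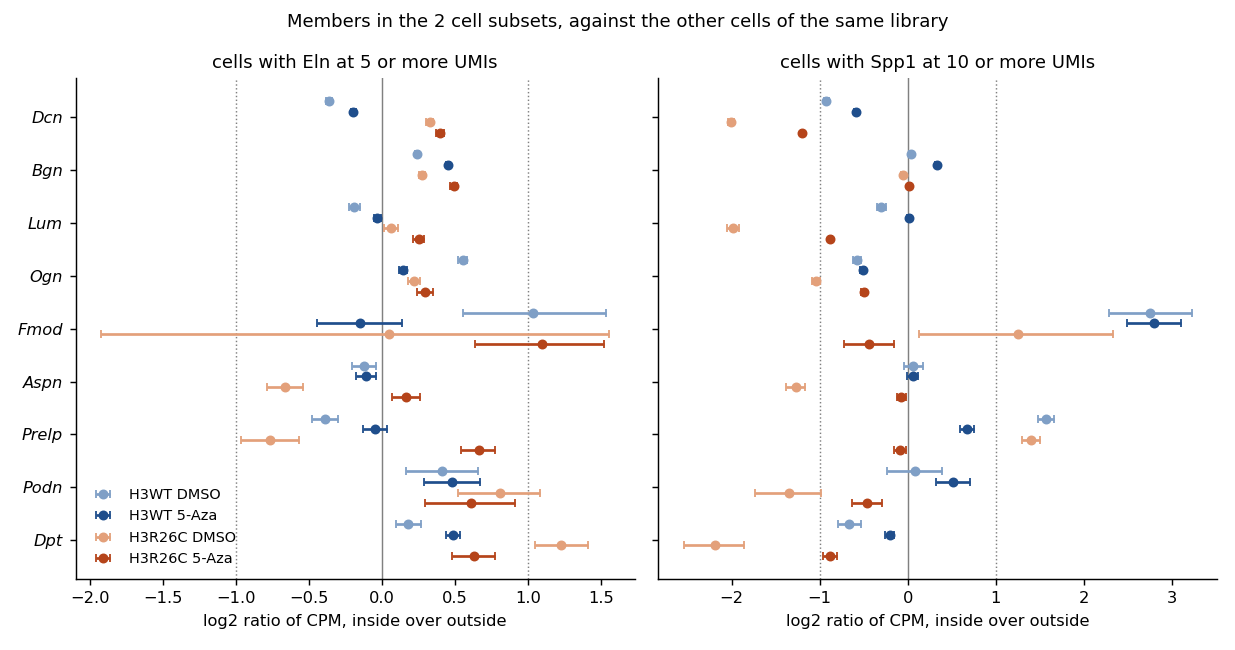
Ratio of CPM (log2, no pseudocount) of each member inside against outside the Eln subset and the Spp1 subset in each library, with exact 95% counting intervals and lines at 2-fold. In the Spp1 subset Dcn, Ogn and Dpt lie below 0 in all 4 libraries, and Fmod is far above 0 in the 2 H3WT libraries.

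Dividing cells also stood apart. Cells with at least 3 of 6 mitosis markers were 3.53%, 5.92%, 7.30% and 14.2% of the libraries, and they made up 11.95%, 10.3%, 27.0% and 17.0% of the Spp1 cells against 2.14%, 4.26%, 3.35% and 6.26% of the others. In these cells Ogn was at 158, 211, 144 and 153 CPM against 463, 592, 558 and 508 in the remaining cells, and Lum at 83.2, 446, 82.0 and 457 against 309.5, 933, 389 and 1126. Prelp was instead higher in them with DMSO, at 109 against 42.3 CPM in H3WT and 70.1 against 32.9 in H3R26C. With the mitosis-marker cells left out, 3 of the 6 members stayed at least 2-fold lower in the Spp1 cells of H3R26C DMSO: the log2 ratio was -1.67 for Dcn, -1.51 for Lum and -1.58 for Dpt, and it was -0.61 for Ogn, -0.77 for Aspn and -0.81 for Podn. Prelp was at 1.51. Among cells of 10000 to 20000 UMIs the same 3 members were at least 2-fold lower, with -1.75 for Dcn, -1.48 for Lum and -1.501 for Dpt. In this band Prelp was at 1.86. No share over all genes was computed for either of these settings. Cells with 8 or more muscle markers were 1.09% of Spp1 cells and 3.11% of the others in H3WT 5-Aza, and 2.13% and 4.49% in H3R26C 5-Aza. Without muscle- or adipocyte-marker cells, and without mitosis-marker cells, the members past 2-fold between libraries were the same as over all cells in each of the 4 comparisons.

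A graded reading of Spp1 was made on cells thinned to 5000 UMIs, so that depth was equal. From cells with 0 Spp1 UMIs over 1 to 3 and 4 to 15 to 16 or more, Dcn was at 1917, 1681, 1297 and 1090 CPM in H3WT 5-Aza, 1817, 935, 502 and 384 in H3R26C DMSO and 3110, 2558, 1608 and 1077 in H3R26C 5-Aza. In H3WT DMSO it was at 975, 708 and 413 CPM over the first bins, and the last bin held 84 Dcn UMIs in 37 cells, more per cell than the 652 in the 316 cells of the bin before it. Over bins of 50 or more cells Dcn was thus lower at each step. Ogn was lower at each of these steps as well, from 658 to 372 CPM in H3WT 5-Aza, 575 to 305 in H3R26C DMSO and 576 to 435 in H3R26C 5-Aza, and from 461 to 297 over 3 bins in H3WT DMSO. Lum was lower at each step in H3R26C (463 to 102 CPM with DMSO, 1661 to 813 with 5-Aza) and was at 872, 984, 969 and 977 CPM in H3WT 5-Aza. Prelp was higher in the bins with Spp1 than in the bin without in H3WT DMSO (29.7, 66.2 and 94.9 CPM), H3WT 5-Aza (48.1, 71.5, 94.97 and 106) and H3R26C DMSO (23.5, 58.5, 85.0 and 72.3), and was at 82.9, 80.2, 98.8 and 76.0 CPM in H3R26C 5-Aza.

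**Figure D4:**
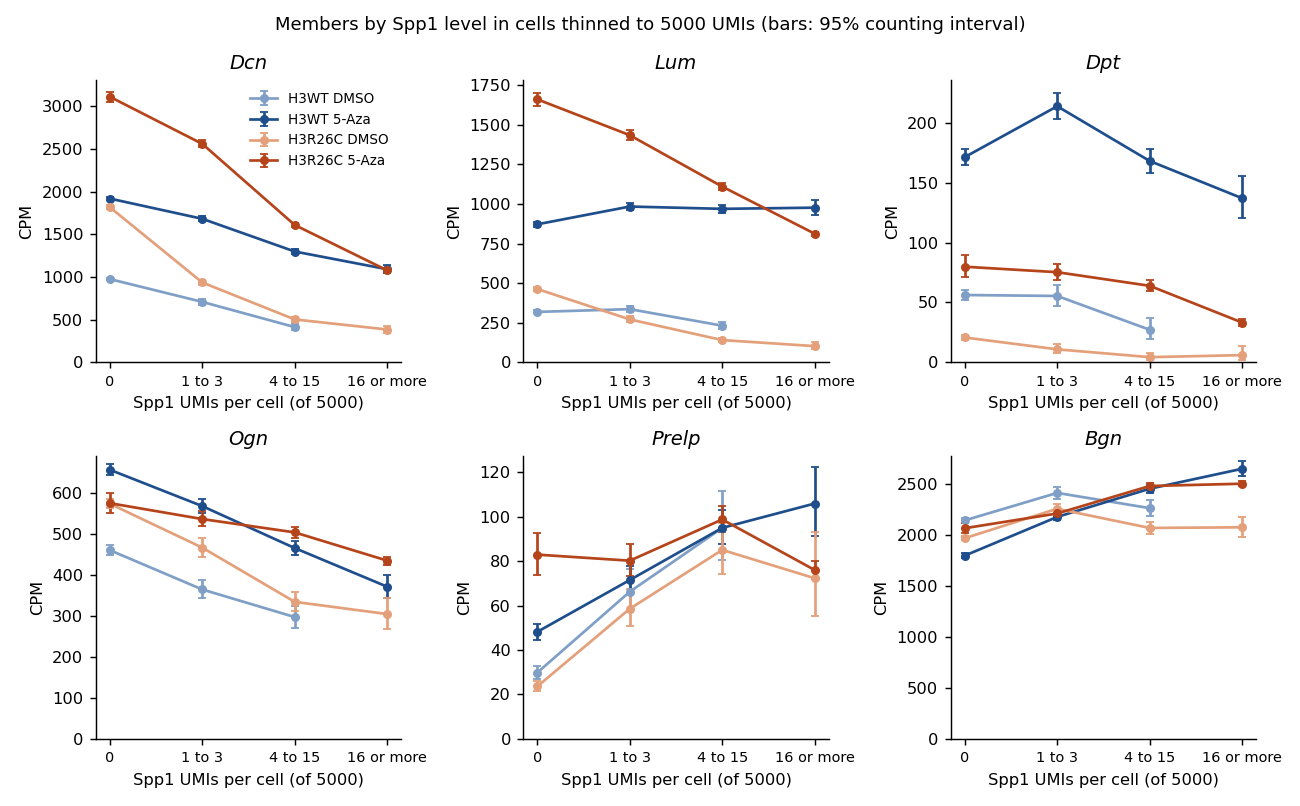
CPM of 6 members in cells grouped by their Spp1 UMIs after thinning to 5000 UMIs, by library, with exact 95% counting intervals; bins under 50 cells are not drawn. Dcn and Ogn are lower at each drawn step in every library, and Lum is level in H3WT 5-Aza at 872 to 984 CPM.

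Because the share of Spp1 cells ran from 14.2% to 73.4% between libraries, the comparisons of libraries were repeated inside and outside the subset. Dcn differed by 1.09 times with 5-Aza in H3R26C over all cells, but by 2.84 times (2.77 to 2.90) among Spp1 cells and 1.62 times (1.60 to 1.63) among the others. Spp1 cells, in which Dcn was lower, were 16.7% of H3R26C DMSO and 73.4% of H3R26C 5-Aza. In H3WT the values were 1.86 over all cells, 2.40 inside and 1.91 outside. Between genotypes Dcn was 0.831 times inside and 1.77 times outside with DMSO, and with 5-Aza 0.983 times inside (0.971 to 0.995), the interval outside being 1.49 to 1.51. Lum was higher with 5-Aza on both sides, by 3.59 and 2.90 times in H3WT and by 7.82 (7.47 to 8.18) and 3.64 times in H3R26C. Between genotypes it was 0.427 times inside and 1.37 times outside with DMSO. Ogn with 5-Aza was 1.37 times DMSO inside and 1.31 times outside in H3WT, and 1.44 (1.40 to 1.48) and 0.986 (0.967 to 1.005) times in H3R26C, so the 0.858 of all H3R26C cells lay below both parts. Prelp was higher with 5-Aza outside the subset, by 1.69 times in H3WT and 3.08 times in H3R26C, and was 0.909 and 1.10 times inside.

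Dpt had the same directions on both sides of the subset. With 5-Aza it was 4.66 times DMSO inside and 3.39 times outside in H3WT, and 10.2 (8.18 to 13.0) and 4.12 times in H3R26C. In H3R26C it was 0.124 times H3WT inside (0.0969 to 0.158) and 0.359 times outside with DMSO, and 0.273 and 0.436 times with 5-Aza. In the Eln subset the ratio of H3R26C to H3WT was 0.609 inside and 0.295 outside with DMSO and 0.356 and 0.322 with 5-Aza, so with DMSO the difference inside was under 2-fold. Ratios across subsets compare cells that were chosen by a gene whose own level differed between the libraries. The choice was made at a threshold of raw UMIs in libraries of unlike depth.

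**Figure D5:**
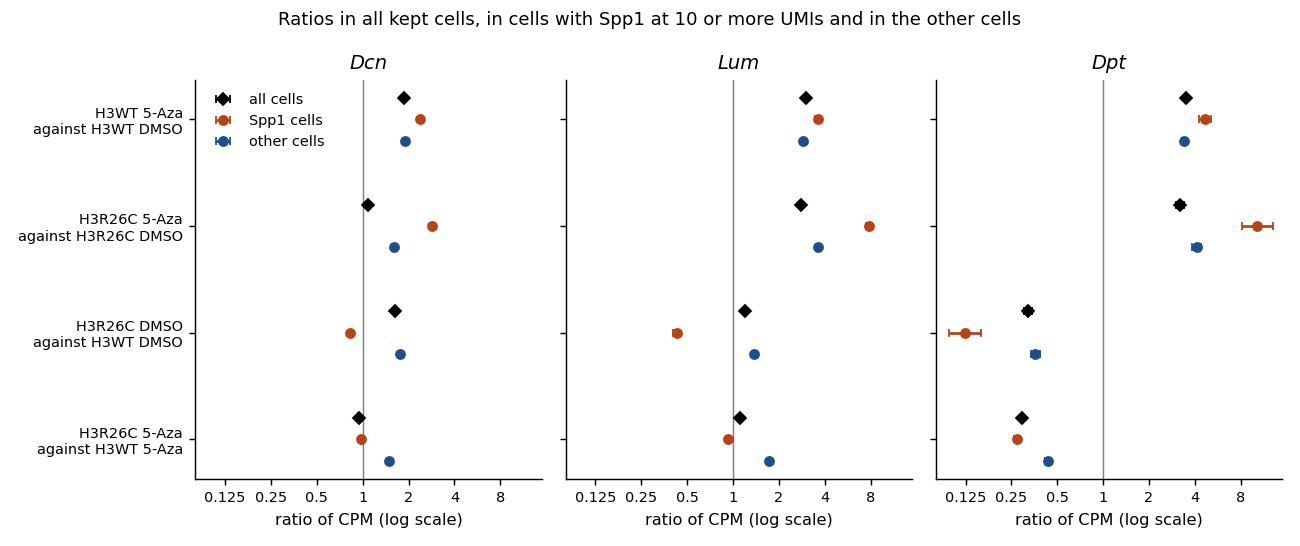
Ratios between libraries (log axis) of Dcn, Lum and Dpt over all cells, in cells with at least 10 UMIs of Spp1 and in the other cells, with exact 95% counting intervals. For Dcn with 5-Aza in H3R26C both parts, 2.84 and 1.62, lie above the 1.09 of all cells. For Dpt the ratio of H3R26C to H3WT lies under 1 in every set.

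The plot of ratios inside and outside the Spp1 subset shows that with 5-Aza in H3R26C the values over all cells, 1.09 for Dcn, 2.81 for Lum and 3.20 for Dpt, lay below the values of both parts. Relatives of the members that share their clusters were read from a list of 10 other leucine-rich matrix proteins. Epyc, the neighbour of Dcn and Lum, was at 5.71, 74.8, 9.54 and 120 CPM, and Kera, the keratocan of the cornea, at 0.345, 2.43, 6.52 and 23.6 CPM. Omd, next to Aspn and Ogn, was at 12.3, 24.1, 10.1 and 30.6 CPM, and Ecm2 at 17.9, 17.5, 16.7 and 7.04. With 5-Aza 2 of 8 tested members of this list were at least 2-fold higher in H3WT (Epyc and Kera) against 4.26% of all genes and 0 lower against 0.276%, and 3 of 7 were higher (Epyc, Kera and Omd) against 8.04% and 2 lower (Ecm2 and Chadl) against 3.09% in H3R26C. In H3WT, Kera, at 0.345 CPM with DMSO, passed the minimum through the 5-Aza library alone. Between genotypes with 5-Aza 1 of 8 was higher (Kera) against 4.79% and 1 lower (Ecm2) against 2.64%.

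The enzymes that build the sugar chains were read from lists for each kind of chain. Of 28 genes for chondroitin and dermatan sulfate synthesis 25 were tested, and 0 were past 2-fold with 5-Aza in either genotype. Over all genes 4.26% were higher and 0.276% lower in H3WT, and 8.04% and 3.09% in H3R26C. At these shares few of 25 genes would pass. The medians of the list were 0.00 and 0.06 on the log2 scale, where those of all genes were 0.04 and -0.03. Between genotypes with DMSO 1 was lower (Xylt1, at 2.96, 3.18, 0.9755 and 1.17 CPM) against 0.589% of all genes. Its log2 ratio of -1.003 was only just past 2-fold, and Xylt2 of the same list was at 20.4, 17.7, 23.0 and 19.1 CPM. Chst11, a sulfotransferase, was at 23.5, 20.8, 20.2 and 12.1 CPM, and Ugdh, which makes glucuronate, at 348, 352, 309 and 235. Of 6 keratan sulfate genes 5 were tested. In H3R26C against H3WT with 5-Aza, where 4.79% of all genes were higher and 2.64% lower, 1 was higher, Chst1 (10.0, 9.24, 21.8 and 25.5 CPM), and 1 lower, Chst2 (10.2, 14.5, 9.01 and 4.30 CPM). B4galt1, a galactosyltransferase, was at 108, 88.7, 89.0 and 74.4 CPM.

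Among 16 fibril collagens and partners the comparison of genotypes with 5-Aza gave 3 of 16 at least 2-fold lower and 1 higher, with a median of -0.41. Over all genes 2.64% were lower and 4.79% higher, with a median of -0.03, and the counts of the lists that follow are for the same comparison. Eln was at 441, 554, 126 and 66.0 CPM and Tnxb, tenascin-X, at 38.4, 46.1, 46.6 and 8.36, and the third lower gene was Col5a3, at 96.3, 94.8, 74.5 and 41.7. The higher gene was Col14a1, a collagen on the fibril surface, at 0.0460, 1.40, 0.238 and 15.6 CPM. Fn1, fibronectin, was at 3605, 4132, 2430 and 2377 CPM. Of the growth factors and receptors 13 of 15 were tested, with 1 higher (Met, a receptor that decorin binds, at 7.26, 12.9, 14.9 and 47.8 CPM) and 1 lower (Tgfb2, at 134, 98.9, 83.1 and 39.2), and a median of -0.06. Of 12 proteases and enhancers 10 were tested, with a median of -0.13, 1 higher (Mmp3, at 0.702, 7.59, 1.89 and 17.4 CPM) and 3 lower: Pcolce2, an enhancer of procollagen cleavage, at 477, 413, 327 and 106 CPM, Adamts5, a protease that cuts aggrecan and versican, at 355, 326, 249 and 136, and Mmp2, gelatinase A, at 874, 984, 614 and 446. Of 4 large aggregating proteoglycans 2 were tested and 1 was higher (Acan, aggrecan, at 0.0230, 0.0356, 0.0119 and 2.17 CPM), and Vcan, versican, was at 304, 373.5, 628 and 464 CPM. Acan passed the minimum through H3R26C 5-Aza alone.

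For the members at 50 CPM or more in at least 1 library, the genes most like them across cells were found from Pearson correlations within each library, over 3755 genes and averaged over the 4 libraries. These correlations share depth and library and describe cells, not samples. Dcn and Lum were each other's nearest gene, with a mean r of 0.49 and a range from 0.33 to 0.65, followed for Dcn by Clec3b (0.40) and Ly6a (0.36) and for Lum by Col3a1 (0.31) and Igf1 (0.29). Ogn was nearest to Tpm1 (0.32), Aspn (0.32) and Sparc (0.29), and Aspn to Ogn, Mgp (0.24) and Ecrg4 (0.23). Bgn was nearest to Cst3 (0.41), Mgp (0.32) and Serpinf1 (0.32). Its mean r to Dcn was -0.09 (-0.24 to 0.16), with the highest value in H3R26C 5-Aza. For Prelp (Serpine2 0.18, Ecrg4 0.18, Pcolce 0.17) and Dpt (Igf1 0.18, Mmp2 0.18, Lum 0.17) the values were weak, in sparse counts, and no order is read from them. Dcn was the member with the lowest mean r to Spp1, at -0.24 (-0.36 to -0.12). The mean r of Prelp to Spp1 was 0.13 (-0.02 to 0.21), with the lowest value in H3R26C 5-Aza.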

How the data were processed

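Single-cell RNA-seq was analysed in 4 libraries, 1 per condition: H3WT and H3R26C with DMSO or 5-Aza. Per the file headers, the authors counted UMIs with Cell Ranger 6.1.0, and the study names the mm10 2020-A reference of the maker. The deposited UMI counts are raw and whole, from before the cell filter of the study. All 32285 genes are in each matrix and no column was left unmapped. How strand was used in counting is not given in the sources used here. The submitters' processing notes also name Seurat 4, and clusters are not analysed here.

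From these counts, cells were kept at 5000 or more UMIs, 1500 or more genes and at most 20% mitochondrial UMIs. UMIs were summed per library or subset and divided by the total, per 1000000, as CPM. Levels carry exact Poisson, shares exact binomial and ratios exact conditional binomial intervals at 95%. A difference counted at 2-fold with a pseudocount of 1 CPM, among genes at a mean of 1 CPM or more. Deeper libraries give narrower intervals, and 3 UMIs, the floor, were 0.0271 to 0.0357 CPM. Shares and correlations used cells thinned to 5000 UMIs with a fixed seed. Doublets were not removed and no caller was run. Counting rules were run on simulated Poisson counts with planted differences. These hold no spread between cells or cultures, so they check the counting alone. Python 3.11.15, numpy 2.4.6, scipy 1.17.1, pandas 2.3.3 and matplotlib 3.10.9 were used, with edgeR 4.0.16 in R 4.3.3 for scaling factors.

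The members and the gene lists were chosen with earlier results of these data known. All 9 members are named. From each other list at most 4 genes are named: those with the largest log2 ratio between genotypes with 5-Aza among genes at 10 CPM or more, and those at the highest CPM. Where 5 or fewer genes of a list passed 2-fold, others were named after their values were seen. Nearest genes are the 3 with the highest mean correlation. Alternatives changed the pseudocount, the minimum, the cell filter, the scaling, the depth, the gates and the cells left out.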

Additional observations from a re-analysis of the deposited data

Results flagged for a closer look

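Each value here is a difference between a pair of log2 ratios of the same contrast whose directions were opposite (second minus first). None of these differences was tested, since each condition has 1 library, and many of the ratios lie close to 1. Some of the directions turned under other processing, and these are named below.

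With 5-Aza, Bgn was 0.947 times DMSO in H3WT and 1.15 times in H3R26C, a difference of 0.28, and Ogn was 1.26 and 0.858 times, a difference of -0.55. Between genotypes, Dcn was 1.62 times H3WT with DMSO and 0.949 times with 5-Aza, a difference of -0.78. In the same contrast Bgn gave 0.909 and 1.10 (0.28), Ogn 1.14 and 0.782 (-0.55) and Prelp 0.808 and 1.19 (0.56). The differences of Bgn and Ogn are the same quantities as those given for 5-Aza, from the same libraries, and are not further results.

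In the Eln subset of H3R26C, the ratio inside to outside was 0.631 with DMSO and 1.12 with 5-Aza for Aspn (0.83) and 0.589 and 1.58 for Prelp (1.42). Between the DMSO libraries, H3WT first, the ratio was 0.777 and 1.25 for Dcn (0.69) and 0.878 and 1.04 for Lum (0.25). Between the 5-Aza libraries it was 0.873 and 1.32 for Dcn (0.59), 0.979 and 1.19 for Lum (0.28) and 0.927 and 1.12 for Aspn (0.27). At 10 or more Eln UMIs the log2 ratio of Lum in H3R26C DMSO turned from 0.06 to -0.25. That of Aspn in H3R26C 5-Aza turned from 0.16 to -0.01, so these oppositions depend on the threshold. The ratio of Lum in H3R26C DMSO also turned, to -0.02, without mitosis-marker cells.

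In the Spp1 subset of H3R26C, DMSO first, the ratio was 2.39 (1.09 to 5.05) and 0.735 for Fmod (-1.70), 2.64 and 0.941 for Prelp (-1.49) and 0.961 and 1.01 for Bgn (0.0769). Between the DMSO libraries it was 1.02 in H3WT and 0.961 in H3R26C for Bgn (-0.0903). Between the 5-Aza libraries, H3WT first, it was 6.94 and 0.735 for Fmod (-3.24), 1.59 and 0.941 for Prelp (-0.76) and 1.43 and 0.724 for Podn (-0.98). In the Spp1 subset of H3R26C DMSO Fmod rested on the fewest UMIs, and its interval is the widest of these. In cells of 10000 to 20000 UMIs its log2 ratio turned from 0.40 to -0.03. In that band Prelp in H3R26C 5-Aza turned from -0.09 to 0.06, and Bgn in H3R26C DMSO from -0.06 to 0.22. With the subset set on thinned cells, Prelp in H3R26C 5-Aza also turned, to 0.06, and Bgn in H3R26C DMSO to 0.04. The latter turned as well with the mean of CPM taken per cell (0.02) and without mitosis-marker cells (0.11). At 20 or more Spp1 UMIs Bgn turned from 0.02 to -0.04 in H3R26C 5-Aza and from 0.03 to -0.04 in H3WT DMSO. Without muscle- or adipocyte-marker cells Bgn in H3R26C 5-Aza turned to -0.006.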

How the results depend on the processing

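No paired analysis was possible because every group is a single library, so no test was made. Of 256 counts of members past 2-fold that were recomputed under the alternatives, 243 stayed within 1.5 times the reported count and 13 moved. Counts of 0 that stayed 0 are among the 243. Some alternatives could not move a count, such as dropping the minimum between libraries, which all members pass. Of 1152 member ratios 0 that were past 2-fold changed sign, and 28 of any size did, 1 of them between libraries: Dcn in H3R26C against H3WT with 5-Aza went from -0.08 to 0.05 (log2) without mitosis-marker cells. No share over all genes was computed under the alternatives. The 13 counts were these. With a pseudocount of 10 CPM, 2 members were higher with 5-Aza in H3R26C (Lum and Dpt), 1 was lower in H3R26C DMSO against H3WT DMSO (Dpt), 0 were higher in Eln cells of H3R26C DMSO and 1 was higher in Spp1 cells of H3WT DMSO (Prelp). In Eln cells of H3R26C 5-Aza 1 was higher (Fmod) with a pseudocount of 0.1 CPM, in cells of 10000 to 20000 UMIs and without mitosis-marker cells. With that subset set on thinned cells, Fmod went the other way, from 0.94 to -0.18 (log2). With subsets set on thinned cells, 1 was higher in Eln cells (Fmod) and 1 lower in Spp1 cells (Dcn) of H3WT DMSO. With thresholds at 10 Eln and 20 Spp1 UMIs, 2 were lower in Spp1 cells of H3WT DMSO (Dcn and Dpt). In cells of 10000 to 20000 UMIs, 2 were higher in Eln cells of H3R26C DMSO (Podn and Dpt). In that band, and again without mitosis-marker cells, 3 were lower in Spp1 cells of H3R26C DMSO (Dcn, Lum and Dpt). The cause of these moves was not tested. Leaving out barcodes shared between libraries, an alternative chosen after seeing the data, moved 0 counts. The spread between cultures remains unknown, and Fmod and Podn are limited by few UMIs.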
